A study of Mus musculus with 50 samples.

Results

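The interferon response and MHC genes, Irgm1 among them, were described on the Agilent arrays. They are a list of 37 genes given by name, with earlier results of these data known and with Irgm1 on it as a DEG of the study: interferon-inducible GTPases, antiviral effectors, sensors and transcription factors, 1 chemokine, and genes of MHC class I and class II. A gene was measured when a probe carried its symbol through the RefSeq accession it was designed on, or through the description in the files, with the older name Irgm read as Irgm1. This gave 51 probes for 36 of the 37 genes, out of 34556 genes and unnamed probes in the whole table. These are 16821 symbols and 17735 unnamed probes that each stand for themselves, and all genes below means both. No probe carries the symbol H2-K1. A pair of probes was designed on a transcript that the files describe as the H-2K(b) heavy chain, and these stand outside the 36 genes.

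RNA came from whole hippocampi of 5 wild-type (WT) male C57/BL6j mice and 5 transgenic (TG) males that over-express DCLK-short, a kinase form of the doublecortin-like kinase gene Dclk1, on a C57/BL6j background. All mice were housed individually before dissection, their age is not given, and the promoter of the transgene is not given in the sources used here. Each of the 10 two-color arrays held 1 WT and 1 TG mouse, and each mouse was measured on a pair of arrays, once in Cy3 and once in Cy5. On arrays 1 to 5 the WT sample carried Cy3, and on arrays 6 to 10 the TG sample did. Array medians of the raw signal ran from 109 to 169.4 in Cy3 and from 77.93 to 164.7 in Cy5. Precision is limited by having 5 mice per genotype, and an SE over 10 arrays does not allow for the mice that arrays share.

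Interferons are released by infected or activated cells and signal through the JAK kinases and STAT transcription factors to a shared program of genes. Its products include the immunity-related GTPases (Irgm1, Irgm2, Igtp and Iigp1), which act on membranes around intracellular pathogens, and proteins that block viral entry or translation. In the brain, MHC class I is present at a low level in many cells, whereas MHC class II is known mainly from microglia and other resident macrophages.

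The direction of every Agilent ratio rests on the labels, and 2 checks went against them. The first was Tmem254a, which was lower in TG on Agilent as labelled, with a log2 ratio of -0.99 ± 0.049 (SE, 10 arrays, limma FDR 6.4e-06). On the separately labelled one-color ABI arrays the same gene was higher in each TG mouse, with raw signals of 24258 to 30367 against 6999.6 to 10675 in WT. In the second check, single-channel values were correlated with the study's table of expression values, of which 667 genes were at hand, over 19 channels. The median best correlation was 0.788 as labelled and 0.893 after arrays 1 to 5 were exchanged with arrays 6 to 10, and the exchanged order gave the higher value for 609 of the genes. All directions below are stated as labelled. The exchange turns each sign, keeps the size, SE and FDR over the 10 arrays, and changes which channels belong to a mouse. The labelled sign of Irgm1 is opposite to that in the study. Dclk1 itself had a log2 ratio of -0.07 ± 0.032 (SE, 10 arrays, limma FDR 0.27), and it was not tested where its 4 probes lie relative to the transgene.

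Some of the members hold promoter motifs of the interferon response. The list was chosen as interferon response and MHC genes, so a share above that of all promoters is not independent evidence. In the 250 bases before the start, the core of the interferon-stimulated response element (ISRE, searched as GAAA, any 2 bases and GAAA, and on the other strand as TTTC, any 2 bases and TTTC) was found in 14 of the 29 members with a listed RefSeq promoter (48.3%), and in 936 of 27025 genes over all promoters (3.46%). The gamma-activated site (GAS, searched as TTCNNNGAA, which reads the same on both strands) was found in 6 members (20.7%) and in 2197 of all genes (8.13%). The ISRE core was present in 5 of 5 GTPase promoters, in 6 of 10 antiviral effectors, in 1 of 6 sensors and transcription factors, in the Cxcl10 promoter, in 1 of 5 class I genes (B2m) and in 0 of 2 class II genes. Bst2, Igtp, Irgm2 and Oas1a held both motifs. A match describes the letters and does not show binding.

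The 100 bases before the start of the 4 members that passed the test below are printed 5′ to 3′ from RefSeq (GRCm38.p6), with matched motifs in capitals. Irgm1 (chr11:48871421-48871520, minus strand) has 2 overlapping ISRE cores, 30 and 24 bases before the start. Irgm2 (chr11:58214877-58214976, plus strand) has a GAS 75 bases before the start and an ISRE core 64 bases before it. Irf1 (chr11:53769914-53770013, plus strand, 1 of its listed starts) has a GAS 90 bases before the start. In the stretch of Ifitm3 (chr7:141010745-141010844, minus strand) these letters were not found.
Irgm1: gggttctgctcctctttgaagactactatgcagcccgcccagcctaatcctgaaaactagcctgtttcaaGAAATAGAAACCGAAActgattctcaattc
Irgm2: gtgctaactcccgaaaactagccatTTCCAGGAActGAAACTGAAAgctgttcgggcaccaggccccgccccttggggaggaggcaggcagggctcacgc
Irf1: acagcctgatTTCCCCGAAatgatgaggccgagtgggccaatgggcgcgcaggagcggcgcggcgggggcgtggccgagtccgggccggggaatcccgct
Ifitm3: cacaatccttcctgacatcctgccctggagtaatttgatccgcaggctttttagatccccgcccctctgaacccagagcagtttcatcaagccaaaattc

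Most of these genes gave a weak signal in the hippocampus. Levels are given as raw signal divided by the 95th percentile over 314 negative controls in the same channel and array, and since brightness depends on the probe, they are not ranked between genes. A gene was called present when at least 1 of its probes exceeded this limit in both channels on all 10 arrays. This held for 35 of 36 members, and for 28271 of the 34556 genes. However, for 22 of the 36 members the median over both channels of all arrays lay between 1 and 2 times the limit. Cxcl10, a chemokine that attracts T cells, was the exception among the present calls, with values from 0.847 to 1.24 times the limit (median 1.02). Its probe was well above background in both channels on 1 array. Further probes under the limit on some array were 1 of 2 for Ifit2, Irf9 and Ifih1 each.

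The median exceeded 5 times the limit for 4 members. B2m, the light chain of MHC class I, was read at 19.5 to 81.2 times the limit (median 33.5). Ifi27, an interferon-induced mitochondrial protein, was at 11.3 to 49.9 times (median 19.0). The class I heavy chain H2-D1 was at 4.49 to 15.8 times (median 6.17), and Ifitm3, which restricts viral entry at endosomal membranes, at 2.93 to 12.3 times (median 5.39). The class II genes H2-Aa and H2-Ab1 had medians of 1.51 and 1.37, whereas H2-Eb1 and the invariant chain Cd74 had medians of 2.21 and 2.34. Irgm1 was read at 2.05 to 5.08 times the limit (median 2.69), Irgm2 at 1.25 to 2.31 times (median 1.52) and Irf1 at 1.61 to 3.74 times (median 2.06). No member spot was saturated.

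**Figure D1:**
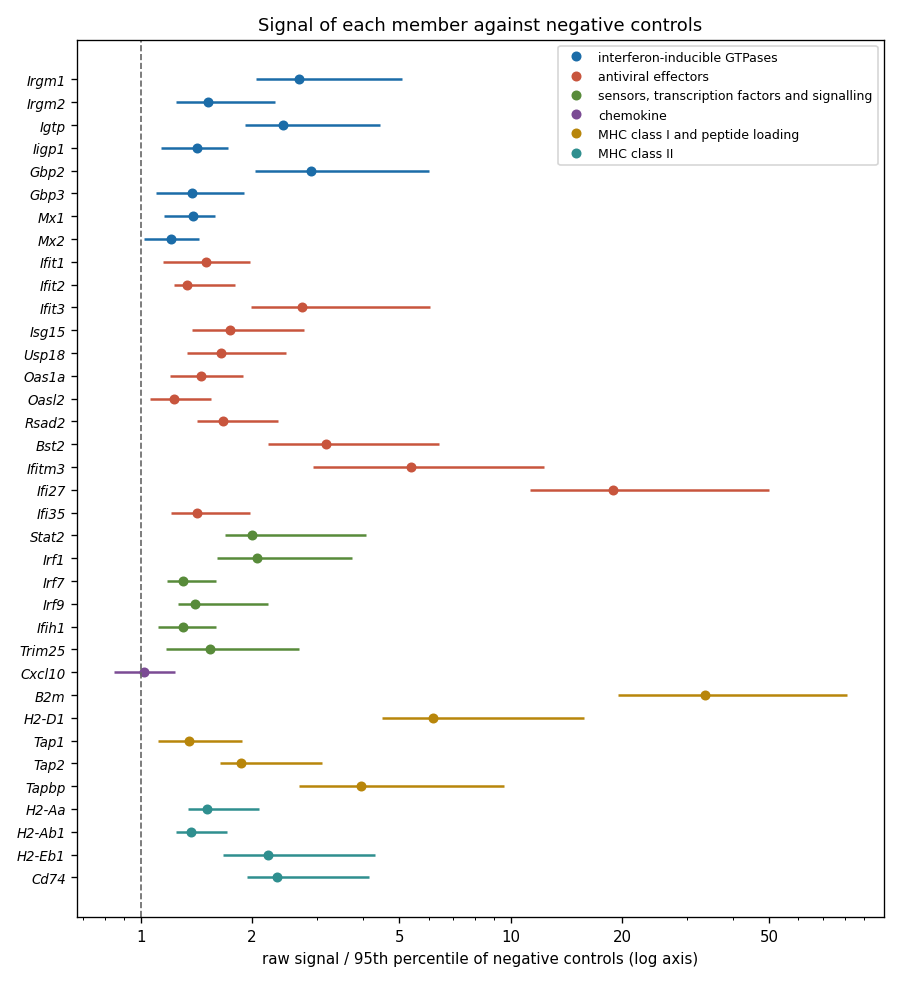
Raw signal of each of the 36 members divided by the 95th percentile of negative controls (log axis, dashed line at 1). Points are medians and lines run from the lowest to the highest value over both channels of 10 arrays. 22 members have a median between 1 and 2, and Cxcl10 alone reaches below 1.

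With the log ratio model and an FDR of 10% (a Benjamini-Hochberg adjusted p of at most 0.1, limma, over all genes), 4 of the 36 members were DEGs (11.1%). The share over all genes was 8.21%, that is 2836 of 34556. As labelled, Irgm1, Irgm2 and Irf1 were lower in TG (3 members, against 4.16% of all genes), and Ifitm3 was higher (1 member, against 4.05% of all genes). Among the genes called present, 9.81% were DEGs. At an unadjusted p under 0.05 there were 10 members, Gbp3, Ifit3, Isg15, Ifi27, H2-D1 and H2-Ab1 beside the DEGs, or 27.8% against 19.1% of all genes. The members' median log2 ratio was -0.02 and that of all genes was 0.00. An absolute log2 ratio under 0.1 was found for 30 of the 36 members (83.3%) and for 79.7% of all genes. No background was subtracted, so near the negative controls the ratios include background signal and their size is uncertain. With the scanner software's background-corrected log ratio, Gbp3 stood at 0.28 (0.08 here), H2-Ab1 at -0.25 (-0.07) and Usp18 at 0.01 (0.00).

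These DEG counts fell strongly when each mouse gave 1 value. Each mouse contributed to a pair of arrays. With 1 value per mouse and 5 mice per genotype, 0 members and 29 of all genes (0.0839%) passed the same FDR in limma. At an unadjusted p under 0.05 that fit had 6 members and 2835 of all genes. Under the exchanged labels it gave 0 members and 11 genes. The fit per mouse used single channels with no array in the model. It thus also gave up the comparison of WT and TG within an array. The change of unit and the loss of that comparison cannot be told apart here. The study's fit of Agilent intensities also gave no DEGs without dye and array in the model.

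Irgm1, a GTPase of the immunity-related family needed for defence against intracellular bacteria, had log2 ratios from -0.31 to 0.06 (median -0.18). It was lower in TG on 9 of the 10 arrays, and array 7 alone lay above 0. The mean was -0.18 ± 0.031 (SE, 10 arrays), a 1.13-fold difference with an FDR of 0.018 in limma. Both of its probes passed on their own among all probes, with log2 ratios of -0.22 ± 0.040 (SE, limma FDR 0.022) and -0.13 ± 0.029 (SE, limma FDR 0.038). The call was lost when both arrays of WT3 were left out (log2 ratio -0.17, limma FDR 0.11), and with median centring in place of loess (-0.15, limma FDR 0.215). The study chose this gene for qRT-PCR from its own Agilent DEGs, so its call here is not independent evidence.

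Irgm2, a related GTPase, had log2 ratios from -0.29 to 0.02 (median -0.08), with 8 arrays below 0. Its mean was -0.11 ± 0.033 (SE, 10 arrays, limma FDR 0.091). Leaving out any 1 array other than array 4, or the arrays of any mouse, raised its FDR above 0.1 (limma, 0.102 to 0.245), as did the scanner software's log ratio (-0.27, limma FDR 0.128). The other GTPases did not pass. Igtp stood at -0.03 ± 0.025, Iigp1 at 0.01 ± 0.036, and Gbp2 at -0.03 ± 0.026. Gbp3, a guanylate-binding protein, stood at 0.08 ± 0.025 (SE, limma FDR 0.12). Mx1 and Mx2, antiviral dynamin-like GTPases that the RefSeq table lists as pseudogenes in its mouse assembly, had medians of 1.39 and 1.21 times the limit and log2 ratios of 0.02 ± 0.023 and 0.04 ± 0.025.

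Ifitm3 was the only DEG of the 12 antiviral effectors and also varied most between arrays. Its log2 ratios ran from -0.21 on array 5 to 0.92 on array 6 (median 0.28), and 9 of 10 arrays were above 0. The mean was 0.35 ± 0.10 (SE, 10 arrays), a 1.27-fold difference (limma FDR 0.082). The call was lost without array 2, 3, 6, 8 or 9 in turn, and without the arrays of any mouse other than WT6 and TG1 (log2 ratio 0.28 to 0.41 over these), and with the scanner software's log ratio (0.43, limma FDR 0.112). Ifi27 stood at 0.12 ± 0.051 (SE, limma FDR 0.21) with arrays from -0.13 to 0.37. Ifit3, a protein that binds viral RNA complexes, stood at -0.13 ± 0.045 (SE, limma FDR 0.12), with 8 arrays below 0. Isg15, a ubiquitin-like modifier, stood at 0.08 ± 0.029 (SE, limma FDR 0.14), with 9 arrays above 0.

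The remaining effectors did not pass the FDR over 10 arrays in limma. Usp18, which removes Isg15 from proteins, stood at 0.00 ± 0.024 and Ifit1 at -0.02 ± 0.058. The oligoadenylate synthetase Oas1a stood at -0.02 ± 0.021 and its relative Oasl2 at 0.00 ± 0.031. Ifit2 stood at -0.05 ± 0.027 and Ifi35 at 0.01 ± 0.023. Rsad2, which makes an antiviral nucleotide, stood at -0.05 ± 0.024 and Bst2, which tethers virus particles to the cell, at 0.06 ± 0.039 (SE, 10 arrays each). The Ifit2 probe above the limit on all arrays stood at -0.08 ± 0.033 (SE, limma FDR 0.19). With the scanner software's log ratio, Ifit2 stood at -0.19, Rsad2 at -0.12 (limma FDR 0.073) and Bst2 at 0.09.

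Irf1, the transcription factor that activates many GTPase and MHC class I genes, had the narrowest spread of the DEGs. Its log2 ratios were between -0.18 and 0.01 (median -0.09), 9 of 10 arrays were below 0, and the mean was -0.09 ± 0.021 (SE, 10 arrays, limma FDR 0.045), a 1.06-fold difference. Neither of its probes passed alone, with log2 ratios of -0.07 ± 0.041 and -0.11 ± 0.034 (SE, limma FDR 0.38 and 0.11). The call held without any 1 array, and was lost without the arrays of any mouse other than WT6 and TG5 (limma FDR 0.107 to 0.18). The other sensors and transcription factors did not pass. Stat2 stood at 0.09 ± 0.041, Irf7 at -0.04 ± 0.037, Irf9 at 0.02 ± 0.040, the RNA sensor Ifih1 at -0.04 ± 0.023, and Trim25 at -0.01 ± 0.068. Cxcl10 gave no fold, since its signal was at the level of the negative controls.

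None of the 5 measured class I and peptide-loading genes and none of the 4 class II genes passed the FDR over 10 arrays in limma, while H2-D1 and H2-Ab1 had an unadjusted p under 0.05. B2m stood at 0.02 ± 0.070, although single arrays ran from -0.40 to 0.31. H2-D1 stood at -0.10 ± 0.036 (SE, limma FDR 0.13) with 8 arrays below 0. The peptide transporter genes Tap1 and Tap2 stood at -0.03 ± 0.042 and -0.02 ± 0.039. The 2 probes of Tapbp, which links the transporter to class I, differed in sign (0.10 ± 0.056 and -0.07 ± 0.050). The means of all 4 class II members were below 0, as were those of 46.9% of all genes. H2-Aa stood at -0.08 ± 0.037, H2-Ab1 at -0.07 ± 0.027, H2-Eb1 at -0.02 ± 0.022 and Cd74 at -0.03 ± 0.043 (SE, 10 arrays each). In this order the means were -0.17, -0.12, -0.06 and -0.11 on arrays 1 to 5. On arrays 6 to 10 they were 0.02, -0.01, 0.03 and 0.06, so the sign differed between dye orientations for H2-Aa, H2-Eb1 and Cd74. Class I heavy chains are close copies of each other, so a probe may read more than 1 of them.

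The H-2K(b) probes, looked at outside the list, passed the FDR. Their mean log2 ratio was -0.29 ± 0.085 (SE, 10 arrays, limma FDR 0.083). The probes alone gave -0.29 each, and 1 of 2 passed among all probes (limma FDR 0.139 and 0.064). A pair of arrays stood far below the rest, array 1 at -0.83 and array 9 at -0.77, whereas the other 8 arrays lay between -0.35 and 0.12. Both hold TG4 as labelled. Without these arrays the log2 ratio was -0.16 (limma FDR 0.12). The call was lost in 17 of 20 fits that left out 1 array or the arrays of 1 mouse, kept without array 7, array 10 or WT6, and lost with median centring (limma FDR 0.254), the scanner software's log ratio (0.108) and 1 value per mouse (0.625).

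**Figure D2:**
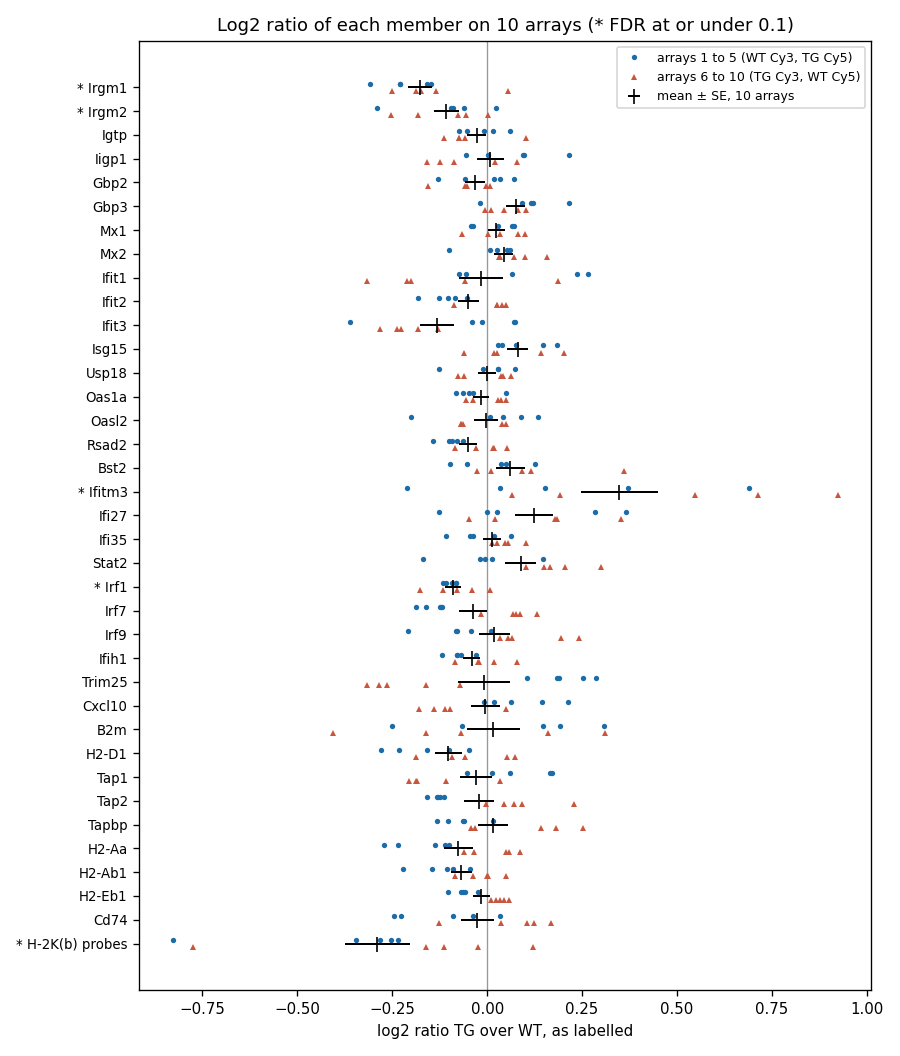
Log2 ratio TG over WT, as labelled, of the 36 members and of the H-2K(b) probes. Circles are arrays 1 to 5, triangles arrays 6 to 10, and bars the mean ± SE over 10 arrays. Genes with an FDR at or under 0.1 carry a star. The Ifitm3 arrays spread from -0.21 to 0.92, the Irf1 arrays from -0.18 to 0.01.

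The 4 DEGs and the H-2K(b) probes were then read per mouse, as the mean of both normalized channels on the log2 scale (as labelled), with an exact two-sided permutation test over all assignments of the 10 mice to 5 and 5. The smallest p this design allows is 0.00794. These 5 tests use the same values as the DEG calls and are not independent of them.

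For Irgm1 the levels of WT1, WT3, WT4, WT5 and WT6 were 7.26, 7.47, 7.35, 7.27 and 7.29, and those of TG1 to TG5 were 7.05, 7.12, 7.18, 7.31 and 7.10. TG4 lay within the WT range and the other 4 TG mice lay below it. The means were 7.33 ± 0.088 and 7.15 ± 0.10 (SD, n = 5, exact p = 0.0317). For Irgm2 the same WT mice were at 6.43, 6.45, 6.37, 6.52 and 6.41, and the TG mice at 6.49, 6.16, 6.34, 6.39 and 6.27. The groups overlapped, since TG1 was higher than every WT mouse but WT5 (exact permutation p = 0.127).

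For Irf1 the WT mice were at 6.84, 6.86, 6.85, 6.90 and 6.93, and the TG mice at 6.86, 6.75, 6.75, 6.76 and 6.82. TG1 alone reached into the WT range (exact permutation p = 0.0238). For Ifitm3 the WT mice were at 8.26, 7.89, 7.74, 8.05 and 8.21, and the TG mice at 8.47, 8.32, 8.40, 8.34 and 8.36. Each TG mouse lay above each WT mouse, and the WT mice spread more, with means of 8.03 ± 0.22 and 8.38 ± 0.058 (SD, n = 5, exact p = 0.00794, the smallest possible).

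Groups that did not overlap were found for 2 of the 36 members, Ifitm3 and H2-Aa, or 5.56% against 2.12% of all genes. H2-Aa lay between 6.40 and 6.46 in WT and between 6.28 and 6.38 in TG. For the H-2K(b) probes, TG4 was at 6.93, while the other TG mice lay between 7.61 and 7.72 and the WT mice between 7.71 and 7.90 (exact permutation p = 0.0159).

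Under the exchange of labels the signs turned and neither Ifitm3 nor H2-Aa was free of overlap. The exact permutation p was then 0.0238 for Irgm1, 0.0873 for Irgm2, 0.0317 for Irf1 and 0.0397 for Ifitm3. The animal with the low H-2K(b) value keeps both of its channels under the exchange and becomes WT5, again at 6.93.

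**Figure D3:**
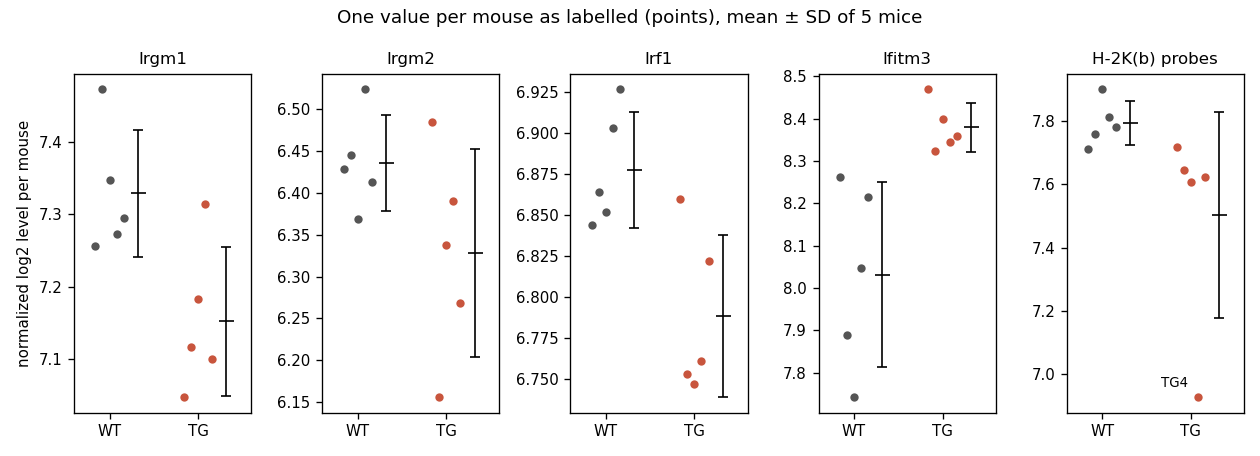
Normalized log2 level per mouse of the 4 DEGs and the H-2K(b) probes, as labelled (points, 5 WT and 5 TG mice), with the mean ± SD. The vertical axes differ between panels. The TG mice lie above the WT mice without overlap for Ifitm3, and TG4 stands apart for the H-2K(b) probes.

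Several members differed between the dye orientations. With a dye term added to the model, this term passed the FDR for 11 of 36 members (30.6%) and for 23.9% of all genes. Arrays 1 to 5 and 6 to 10 also differ in the series of their slide numbers, so dye orientation and slide series cannot be told apart. Trim25, a ubiquitin ligase of the RNA-sensing pathway, had the largest such term among members, 0.21 ± 0.028 (SE, limma FDR 0.0023). Its log2 ratio TG over WT was 0.10 to 0.29 on arrays 1 to 5 and -0.32 to -0.07 on arrays 6 to 10. Irf7, the transcription factor of the late type I interferon response, went the other way, with a mean of -0.14 ± 0.030 on arrays 1 to 5 and 0.07 ± 0.054 on arrays 6 to 10 (SD, 5 arrays each, limma FDR of the dye term 0.0049). Tap2 was similar, with means of -0.13 ± 0.017 and 0.09 ± 0.087 (SD, 5 arrays each, limma FDR of the dye term 0.0094).

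The term was also past the FDR for Ifit2, Stat2, Irf9, Tap1, Tapbp, H2-Aa and H2-Eb1, and for Cxcl10, where it is a difference in signal at the level of the negative controls and not in expression. It was positive for 3 of the 11 members and negative for 8. The arrays of the orientations did not overlap for 6 members (Irf7, Irf9, Trim25, Tap2, H2-Aa and H2-Eb1), or 16.7% against 14.7% of all genes. The 4 DEGs were not among them. Irgm1 had means of -0.21 on arrays 1 to 5 and -0.14 on arrays 6 to 10, Irgm2 of -0.10 and -0.11, Irf1 of -0.10 and -0.08, and Ifitm3 of 0.21 and 0.49. In the model with the dye term 9 members were DEGs, 7 lower and 2 higher, against 10.2% of all genes. Gbp3, Ifit3, H2-D1, H2-Aa and H2-Ab1 were added to the 4.

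**Figure D4:**
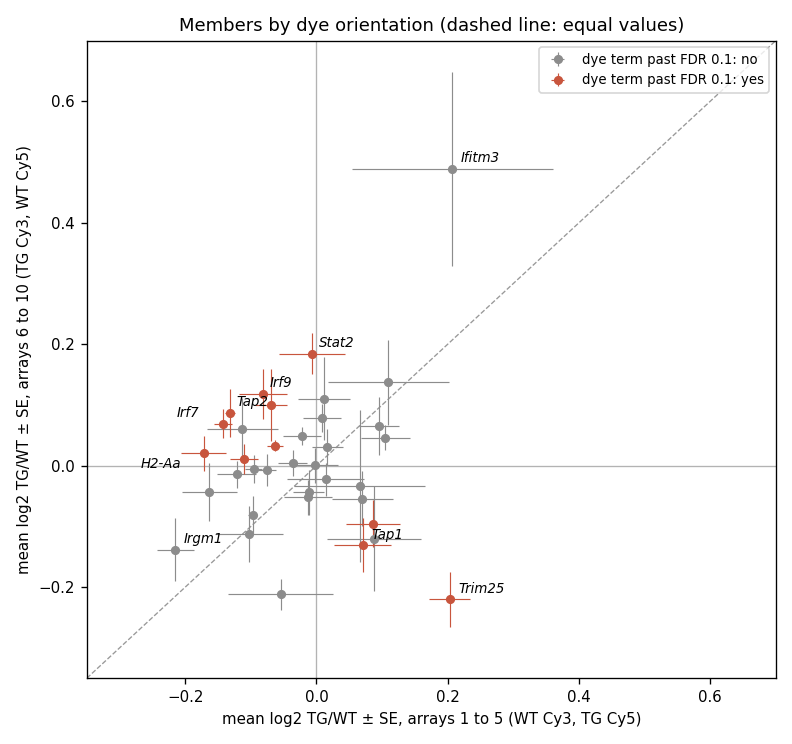
Mean log2 ratio TG over WT ± SE of each member on arrays 1 to 5 (horizontal) and arrays 6 to 10 (vertical), as labelled, with the dashed line at equal values. Members whose dye term passed the FDR are red. Trim25 lies at 0.20 and -0.22, and Irgm1 and Ifitm3 have the same sign on both axes.

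Other genes of the pathway were counted from lists beside the members, to be read against 8.21% of DEGs over all genes. Of 9 interferon receptor and kinase genes 0 passed the FDR over 10 arrays in limma. Of 39 measured interferon-induced genes, 1 passed, the GTPase Tgtp1, at -0.08 ± 0.023 (SE, limma FDR 0.065), and 33 of the 39 were called present. Their median log2 ratio was -0.01.

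Among 19 measured antigen presentation genes outside the members, 6 passed, 4 lower and 2 higher in TG as labelled. The share was 8.21% over all genes and 9.81% over the genes called present. These calls are over arrays that share mice, and with 1 value per mouse 29 of the 34556 genes passed. The class I related genes H2-T23 and H2-Q7 were lower on 10 of 10 arrays, with log2 ratios of -0.17 ± 0.033 (SE, limma FDR 0.027) and -0.17 ± 0.036 (SE, limma FDR 0.029). The lysosomal protease Ctss, which trims the invariant chain, was at -0.24 ± 0.050 (SE, limma FDR 0.032). Canx, a chaperone of class I heavy chains, was the remaining one (-0.26 ± 0.081, SE, limma FDR 0.095), and is named beyond the rule because it completes the count. The higher ones were the immunoproteasome subunit Psmb10, at 0.37 ± 0.073 (SE, limma FDR 0.026), and the proteasome activator Psme1, at 0.22 ± 0.066 (SE, limma FDR 0.085). The list's median log2 ratio was -0.03. On ABI, where 311 of 33012 probes could be named and none of them is a member, H2-Q7 had a difference TG minus WT of 0.32 ± 0.16 (SE, 10 arrays, limma FDR 0.99).

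Markers of several cell types were counted in the same way, against 8.21% of DEGs over all genes. These calls are over arrays that share mice, and with 1 value per mouse 29 of all genes passed. In bulk tissue fewer cells of a type and less RNA per cell cannot be told apart. Of 12 microglial markers 2 were lower and 1 higher, namely P2ry12 (-0.29 ± 0.061, limma FDR 0.032), Itgam (-0.15 ± 0.045, limma FDR 0.088) and Tmem119 (0.13 ± 0.034, limma FDR 0.057). The median log2 ratio of the microglial list was 0.01. Its summed level ranged from 4310 to 5481 in WT mice and from 4546 to 5108 in TG mice, the TG range inside the WT range. Of 8 endothelial markers 2 were lower, Cldn5 (-0.25 ± 0.056, limma FDR 0.038) and Slco1a4 (-0.20 ± 0.049, limma FDR 0.048), with summed levels of 2054 to 2130 in WT and 1790 to 2081 in TG. In the same list Ly6c1 and Cdh5 stood at 0.27 ± 0.12 and 0.09 ± 0.060 and did not pass. Of 5 astrocyte markers 2 were higher, Aldh1l1 (0.23 ± 0.045, limma FDR 0.025) and Aqp4 (0.30 ± 0.084, limma FDR 0.067), with summed levels of 2755 to 3416 and 3103 to 4120. Gfap of that list stood at -0.15 ± 0.052 and did not pass (limma FDR 0.13). No T cell, B cell, perivascular macrophage, choroid plexus or meningeal marker passed. In the blood list Alas2 was lower (-0.13 ± 0.039, limma FDR 0.095), and among hippocampal neuron markers C1ql2 was lower (-0.30 ± 0.050, limma FDR 0.014) and Calb1 higher (0.14 ± 0.033, limma FDR 0.046). The SE of these markers is over 10 arrays. The perivascular marker Cd163 and the thalamic marker Lef1 did not exceed the negative control limit. The part of these cells in the members' differences was not tested.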

How the data were processed

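Per the file headers, the deposited Agilent intensities are mean pixel values of each spot in Cy3 and Cy5, without normalization, with local background intensities, flags and a log10 ratio that the scanner software had corrected for background and dye. The deposited ABI intensities are raw signals. Illumina values (80 columns that no source pairs with mice) were not used.

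From these, log2 ratios were formed with no background subtraction and loess was run on each array, control spots at weight 0. Spots of a probe, then probes of a gene, were averaged. limma 3.58.1 (R 4.3.3, blocks with statmod 1.5.0) fitted an intercept over 10 arrays. Benjamini-Hochberg adjustment was over 34556 genes and unnamed probes, with FDR limit 0.1 and no filter. Mouse values came from loess and Aquantile single channels. ABI signals were quantile normalized on the log2 scale. Symbols came from a RefSeq table by accession (22072 probes), then description (1366). Groups follow the labels. The fit was checked on simulated data with independent arrays. These had no mice shared between arrays and no dye effect, so the check does not bear on either. The members and lists were chosen with earlier results of these data known. Named genes are every member and, of other lists, the DEGs with the smallest p, up to 3 per direction.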

Additional observations from a re-analysis of the deposited data

Results flagged for a closer look

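Of 37 sets of 10 arrays and 74 sets of 5 mice looked at for the members and the H-2K(b) probes, 5 held a value far from the others, where chance marks about 1 set in 20. Array 7 was apart for Irgm1, with a log2 ratio of 0.056, and array 6 for Bst2, with 0.361. On the log2 level scale, as labelled, TG4 was low for Mx2 (5.95), TG2 for H2-D1 (8.28) and TG4 for the H-2K(b) probes (6.93).

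The log2 ratio TG over WT differed between arrays 1 to 5 and arrays 6 to 10 for 11 members by the dye term, where the difference is 2 times the term and each passed the FDR over 10 arrays in limma. It was positive for Trim25 (0.212), Tap1 (0.101) and Cxcl10 (0.0910), the last from a probe not above the negative controls, so that its value is one of background signal. It was negative for Tap2 (-0.109), Irf7 (-0.106), Irf9 (-0.0996), Stat2 (-0.0959), H2-Aa (-0.0959), Tapbp (-0.0847), Ifit2 (-0.0605) and H2-Eb1 (-0.0483). Over all genes 4677 such terms were positive and 3566 negative.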

How the results depend on the processing

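No member that was a DEG in any setting had the opposite sign there, over 10 alternatives and leaving out each array or mouse. Among 34556 genes the 2836 DEGs became 1163 with median centring, 29 with 1 value per mouse, 5226 with the WT mouse as a random block and 1263 at an FDR of 0.05. The 4 member DEGs became 1 with median centring (Ifitm3), 9 with the dye term, 0 with 1 value per mouse, 8 and 9 with the TG or WT mouse as a random block (4246 and 5226 of all genes), and 2 at an FDR of 0.05 (Irgm1 and Irf1). Under the exchanged labels the blocks gave 8 and 5 members and 4515 and 3311 genes. The scanner software's log ratio gave 5 members, with Irgm2 and Ifitm3 lost and Gbp3, H2-Ab1 and Rsad2 added, and values of -0.27 for Irgm1, -0.27 for Irgm2 and -0.18 for Irf1. Leaving out arrays or mice gave 336 to 3168 DEGs among all genes and 0 to 4 among members. The count over all genes moved by over 1.5 times without array 2, 3, 6, 8 or 9 and without any mouse other than WT1 and WT6, with the lowest values without WT4 (336) and WT3 (384). The members' count did so without the same arrays and without any mouse other than WT6, and was 0 without WT3. The cause of these changes was not tested. The consensus correlation of both arrays of a mouse was -0.162 (TG) and -0.252 (WT), and with the dye term 0.123 and -0.0232. The blocks used the values without the dye term, and a negative value makes the SE smaller. For Irgm1 the SE was 0.0279 and 0.0276 with the TG and WT block, against 0.0315. The arrays of a mouse always differed in dye orientation, so these values also hold the dye difference. The higher counts with blocks are therefore no sign of stronger calls.

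On ABI, 1 probe passed the FDR in limma, 0 with median centring, 0 with the mouse number as a replicate block, and 0 to 2 leaving out each mouse (1686 probes at an unadjusted p under 0.05). The correlation of same-numbered mice was between -0.154 and 0.240, so the numbers do not pair them. On Agilent the log ratio within an array already sets 1 WT mouse against 1 TG mouse. Of the members, Cxcl10 was at the level of the negative controls, which limits what its signal can show.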
